A study of Homo sapiens with 6 samples.

Results

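Genes of glycolysis and glucose uptake other than PFKP were followed in SK-Hep1 cells after knockdown of TARDBP. They were chosen as 10 probes, listed by identifier, in the order HK2 (ILMN_1723486), PGK1 (ILMN_1755749), LDHA (ILMN_1807106), ENO1 (ILMN_1710756), ENO2 (ILMN_1765796), PFKFB3 (ILMN_2186061), PFKFB4 (ILMN_1653292), SLC2A1 (ILMN_1809256), SLC2A3 (ILMN_1775708) and ALDOC (ILMN_1755974). The probes were named by identifier and not by a threshold on their values, though earlier results of these data were known when they were named. Of these 10 probes, 9 were among the 47231 probes of the deposited table, and the platform annotation gave each of the 9 the gene listed for it. The probe listed for SLC2A1 was not analysed here, and that gene was read from the probe the annotation gives it, ILMN_1659027. The cells are SK-Hep1, a human line labelled as hepatocellular carcinoma, a liver cancer. The study compared 3 samples labelled siLuc, the control, with 3 labelled siTARDBP, in which TARDBP was knocked down, each on its own one-colour Illumina bead array. TARDBP encodes TDP-43, a protein that binds RNA and DNA and takes part in splicing. Neither the time after transfection nor the number of siRNAs is stated in the labels. Whether replicates were grown as separate cultures is not recorded there either, and every p-value here therefore reflects the spread among these 6 arrays alone, which may be technical.

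Glycolysis turns glucose into pyruvate in the cytosol and yields ATP without oxygen. Glucose enters through transporters of the SLC2A (GLUT) family, is phosphorylated by hexokinases, and is committed to the pathway by phosphofructokinase. That step is set by fructose 2,6-bisphosphate, which the PFKFB enzymes make and break down. Aldolase, phosphoglycerate kinase and enolase act further down, and lactate dehydrogenase A turns pyruvate into lactate. Several of these genes are known targets of the hypoxia-inducible factor HIF-1, and many tumours use the pathway heavily even with oxygen present.

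The arrays had a median raw intensity between 64.4 and 83.0 and a brightest probe between 23102 and 26258. A background level was estimated for each array from its dim probes, and the 15149 probes above it on at least 3 of the 6 arrays were tested. The only annotated probe for TARDBP read 265, 214 and 203 in siLuc and 136, 84.0 and 96.5 in siTARDBP. It fell by 0.98 on the log2 scale (limma adjusted p = 1.6e-05), and siTARDBP replicate 3 was not above background. Over 18 processing alternatives its log2 difference ranged from -1.25 to -0.91, and it passed in each. The probe ILMN_3200717, annotated to TARDBPP3, a locus named after TARDBP, had a log2 difference of -2.23 (limma adjusted p = 3.4e-10). That was the largest fall of all tested probes, and whether this probe reads TARDBP RNA was not tested. Of 11 annotated hepatocyte genes, ALB and SERPINA1 had tested probes and neither passed the test, while AFP, APOA1, APOB, TTR and the other 5 were not above background on enough arrays. None of 5 endothelial genes was tested. VIM, SPARC and CDH2 were the 3 tested of 6 mesenchymal genes, and none passed. Of 4 leukocyte genes CD14 and CD68 were tested, and 2 of 3 CD68 probes passed in opposite directions, with log2 differences of -0.67 and 0.52.

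Among the members, PFKFB4, ENO2 and PGK1 fell after TARDBP knockdown, by 1.91-fold, 1.64-fold and 1.37-fold. HK2, LDHA, ENO1, PFKFB3 and SLC2A3 did not pass the test, and ALDOC was too dim to be tested. In bulk RNA, a lower signal from fewer cells of a kind and from less RNA per cell cannot be told apart. So 3 of the 8 tested member probes were called, all lower, in limma's moderated test at a Benjamini-Hochberg adjusted p of 0.05 over all tested probes. Over all 15149 tested probes 11.2% were called, 5.34% as lower and 5.87% as higher. The 3 siTARDBP arrays lay below all 3 siLuc arrays for 4 of the 8 members after normalisation, against 15.2% of all tested probes. The median log2 difference was -0.16 over the 8 members and -0.0039 over all tested probes. All 8 exceeded the background level on all 6 arrays, so none was tested only through the group in which it was brighter. Ordered from the largest fall, PFKFB4 was number 30, ENO2 number 81 and PGK1 number 295 of 15149.

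**Figure D1:**
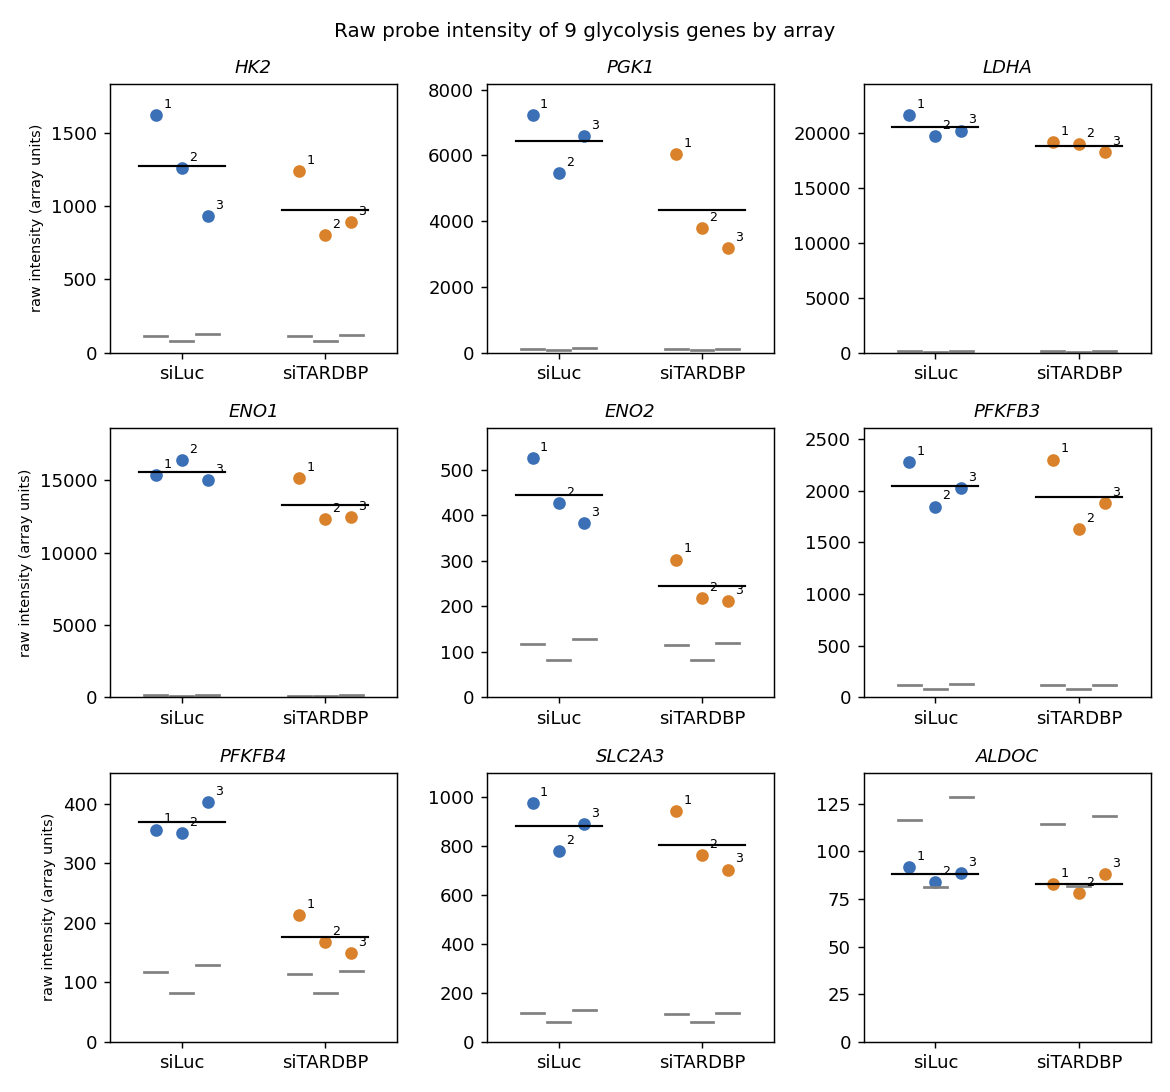
Raw intensity of the 9 member probes on each array, in array units on linear axes from 0. Points are arrays with their replicate number, black bars are group means and grey bars the estimated background level of each array. The siTARDBP points lie below all siLuc points for LDHA, ENO2 and PFKFB4, overlap them for HK2, PGK1, ENO1, PFKFB3 and SLC2A3, and ALDOC lies under background on 5 of 6 arrays.

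The upstream sequences of PGK1, ENO2, PFKFB4 and SLC2A1, which fell, are shown with that of LDHA, a gene of the same pathway whose member probe did not pass the test. Windows of 250 bases before an annotated start were taken from RefSeq on GRCh38.p14 for 9 of the 10 genes (not SLC2A3), 12 windows in all. They were searched on both strands for ACGTG and GCGTG, the core letters of the site that HIF-1 is known to bind. Capitals mark each match, and a match on the opposite strand appears as its reverse complement. A run that reads alike on both strands counts on each, so its matches overlap.
PGK1, chrX:78103998-78104247, plus strand: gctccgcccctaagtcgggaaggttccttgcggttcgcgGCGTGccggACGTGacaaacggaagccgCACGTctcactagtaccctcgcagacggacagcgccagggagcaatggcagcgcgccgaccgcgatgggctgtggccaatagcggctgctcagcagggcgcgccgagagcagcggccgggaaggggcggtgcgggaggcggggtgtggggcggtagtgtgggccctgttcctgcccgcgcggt
ENO2, chr12:6914330-6914579, plus strand: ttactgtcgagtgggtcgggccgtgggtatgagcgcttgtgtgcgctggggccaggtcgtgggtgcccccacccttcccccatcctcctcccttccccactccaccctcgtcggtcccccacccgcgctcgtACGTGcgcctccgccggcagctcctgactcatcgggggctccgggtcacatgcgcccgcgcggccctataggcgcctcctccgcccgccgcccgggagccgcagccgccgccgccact
PFKFB4, chr3:48556804-48557053, minus strand: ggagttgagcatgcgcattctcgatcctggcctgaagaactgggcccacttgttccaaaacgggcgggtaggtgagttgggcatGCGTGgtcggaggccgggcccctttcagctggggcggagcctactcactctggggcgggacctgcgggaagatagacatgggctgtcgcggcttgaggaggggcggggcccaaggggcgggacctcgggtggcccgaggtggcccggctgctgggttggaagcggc
SLC2A1, chr1:42958869-42959118, minus strand: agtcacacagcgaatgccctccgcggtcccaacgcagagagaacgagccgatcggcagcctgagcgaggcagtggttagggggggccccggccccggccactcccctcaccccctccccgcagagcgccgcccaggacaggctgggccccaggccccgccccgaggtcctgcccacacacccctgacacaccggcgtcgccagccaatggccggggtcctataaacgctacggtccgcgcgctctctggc
LDHA, chr11:18394313-18394562, plus strand: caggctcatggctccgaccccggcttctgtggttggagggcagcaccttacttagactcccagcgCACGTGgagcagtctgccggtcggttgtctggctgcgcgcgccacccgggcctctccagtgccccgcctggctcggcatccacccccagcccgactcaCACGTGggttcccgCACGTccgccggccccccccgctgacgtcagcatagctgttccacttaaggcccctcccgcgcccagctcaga

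The PGK1 window held ACGTG at -202 on its own strand and at -183 on the opposite strand, with GCGTG at -211, counted from the start site. The ENO2 window held 1 ACGTG at -118, and the PFKFB4 window held no ACGTG and 1 GCGTG at -166. The LDHA window shown, 1 of 2 for that gene, held 5 ACGTG matches over both strands. The other LDHA window held no ACGTG and 1 GCGTG. Of the 12 member windows, 7 held ACGTG and 11 held either motif, and the SLC2A1 window held neither. Of all 35116 windows in the table, 18.5% held ACGTG, 32.2% GCGTG and 43.2% either. The members include known HIF-1 targets and some give 2 windows, so they are not a like sample of all windows. The matches describe letters in these windows and were found both where the gene fell and where the test was not passed. Of LDHA, a dimmer probe outside the members did pass, with a log2 difference of -0.35 (limma adjusted p = 0.026). Matches also lay before HK2 and ENO1, which passed on no probe.

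SLC2A1 and SLC2A3 encode the glucose transporters GLUT1 and GLUT3. The annotated SLC2A1 probe read 1086, 779 and 1040 in siLuc and 627, 596 and 463 in siTARDBP, so the groups did not overlap. SLC2A1 fell by 0.63 on the log2 scale (SE 0.12, 1.54-fold lower, n = 3 each, limma adjusted p = 0.0020). Its fall was -0.34 in siTARDBP replicate 2 and -0.75 and -0.79 in replicates 1 and 3, relative to the siLuc mean. SLC2A3 read 973, 779 and 887 in siLuc and 941, 762 and 702 in siTARDBP, and the groups overlapped. Its log2 difference was 0.017 with a 95% interval from -0.18 to 0.22 (limma adjusted p = 0.93). SLC2A3 has a near-identical neighbour, SLC2A14, and whether its probe also reads that transcript was not tested.

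HK2 encodes hexokinase 2, which phosphorylates glucose and binds mitochondria. Its member probe read 1621, 1257 and 929 in siLuc and 1237, 801 and 888 in siTARDBP. In raw intensity the groups overlapped, since siLuc replicate 3 lay among the siTARDBP arrays. After normalisation that array was the lowest of the 6, at 9.78 on the log2 scale. The log2 difference was -0.21 with a 95% interval from -0.50 to 0.089 (limma adjusted p = 0.38). Without siLuc replicate 3 it was -0.42 and passed the test (limma adjusted p = 0.021). A second HK2 probe, ILMN_2156172, gave -0.074 (limma adjusted p = 0.70), and there siLuc replicate 3 was the highest of the 6 arrays, at 1020.

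PFKFB3 and PFKFB4 encode enzymes that make and break down fructose 2,6-bisphosphate, with PFKFB3 known for its strong kinase side. PFKFB4 read 357, 351 and 403 in siLuc and 213, 168 and 149 in siTARDBP. All 3 siTARDBP arrays were lower than all siLuc arrays and stayed above background. PFKFB4 fell by 0.93 on the log2 scale (SE 0.11, 1.91-fold lower, n = 3 each, limma adjusted p = 2.6e-05). The member probe of PFKFB3 read 2279, 1846 and 2023 in siLuc and 2302, 1630 and 1879 in siTARDBP, with the groups overlapping. Its log2 difference was 0.099 with a 95% interval from -0.096 to 0.29 (limma adjusted p = 0.55). A second PFKFB3 probe, ILMN_1660847, had a log2 difference of 0.36 with a limma adjusted p of 0.052, and all 3 siTARDBP arrays lay above all siLuc arrays after normalisation. That probe passed in 5 of 19 alternatives, with adjusted p between 0.023 and 0.31 over them. The passes were cyclic loess (adjusted p = 0.046), the filter for background on all 6 arrays (adjusted p = 0.047), the replicate number as a block (adjusted p = 0.027), and the fits without siLuc replicate 1 (0.46, adjusted p = 0.023) and without siTARDBP replicate 2 (0.41, adjusted p = 0.043).

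ALDOC encodes aldolase C, an isoform best known from brain. Its probe read between 83.7 and 91.8 in siLuc and between 78.2 and 87.9 in siTARDBP. It exceeded the background level on 1 siLuc array and on no siTARDBP array, so no difference is given.

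PGK1 encodes phosphoglycerate kinase 1, which carries out the first ATP-yielding step of the pathway. Its member probe read 7217, 5470 and 6576 in siLuc and 6045, 3790 and 3189 in siTARDBP. In raw intensity siTARDBP replicate 1 lay among the siLuc arrays, and after normalisation the groups were apart. PGK1 fell by 0.45 on the log2 scale (SE 0.12, 1.37-fold lower, n = 3 each, limma adjusted p = 0.026). Relative to the siLuc mean, the difference was -0.14 in siTARDBP replicate 1, -0.47 in replicate 2 and -0.74 in replicate 3. The call was lost without siLuc replicate 1 (-0.41, adjusted p = 0.091), siLuc replicate 2 (-0.48, adjusted p = 0.077) or siLuc replicate 3 (-0.47, adjusted p = 0.053). The call was also lost without siTARDBP replicate 2 (-0.44, adjusted p = 0.050) or siTARDBP replicate 3 (-0.31, adjusted p = 0.16). The second PGK1 probe, ILMN_2216852, read 3116, 2400 and 2634 in siLuc and 1973, 1580 and 1382 in siTARDBP, with no overlap. It fell by 0.55 (SE 0.099, 1.46-fold lower, limma adjusted p = 0.0016) and passed in all 19 alternatives.

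ENO1 and ENO2 encode enolases, which make phosphoenolpyruvate. ENO1 is the form found in most tissues and ENO2, also called neuron-specific enolase, is best known from neurons and neuroendocrine cells. ENO2 read 526, 426 and 382 in siLuc and 302, 217 and 212 in siTARDBP. The groups did not overlap. ENO2 fell by 0.72 on the log2 scale (SE 0.11, 1.64-fold lower, n = 3 each, limma adjusted p = 0.00031). ENO1 read 15371, 16427 and 15010 in siLuc and 15157, 12309 and 12451 in siTARDBP, and siTARDBP replicate 1 lay among the siLuc arrays. Its log2 difference was -0.11 with a 95% interval from -0.32 to 0.10 (limma adjusted p = 0.54).

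LDHA encodes the lactate dehydrogenase subunit that favours lactate formation. Its member probe read 21624, 19728 and 20241 in siLuc and 19215, 18986 and 18306 in siTARDBP, at 72.3% to 87.1% of the brightest probe of each array. The siTARDBP arrays lay just below the siLuc arrays, with a log2 difference of -0.087 and a 95% interval from -0.28 to 0.11 (limma adjusted p = 0.60). A second probe of similar brightness, ILMN_3249748, gave -0.13 (limma adjusted p = 0.45). The remaining and much dimmer LDHA probe, ILMN_3251145, read 420, 312 and 425 in siLuc and 346, 238 and 241 in siTARDBP. It fell by 0.35 (SE 0.097, 1.28-fold lower, limma adjusted p = 0.026). That call was lost without siLuc replicate 1 (-0.36, adjusted p = 0.062), siLuc replicate 3 (-0.29, adjusted p = 0.10) or siTARDBP replicate 3 (-0.32, adjusted p = 0.11). Whether the signal of the brighter LDHA probes is compressed near the top of the scale was not tested. LDHA, ENO1 and PGK1 have processed pseudogenes of similar sequence, and the part of these in the signals was not tested either.

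**Figure D2:**
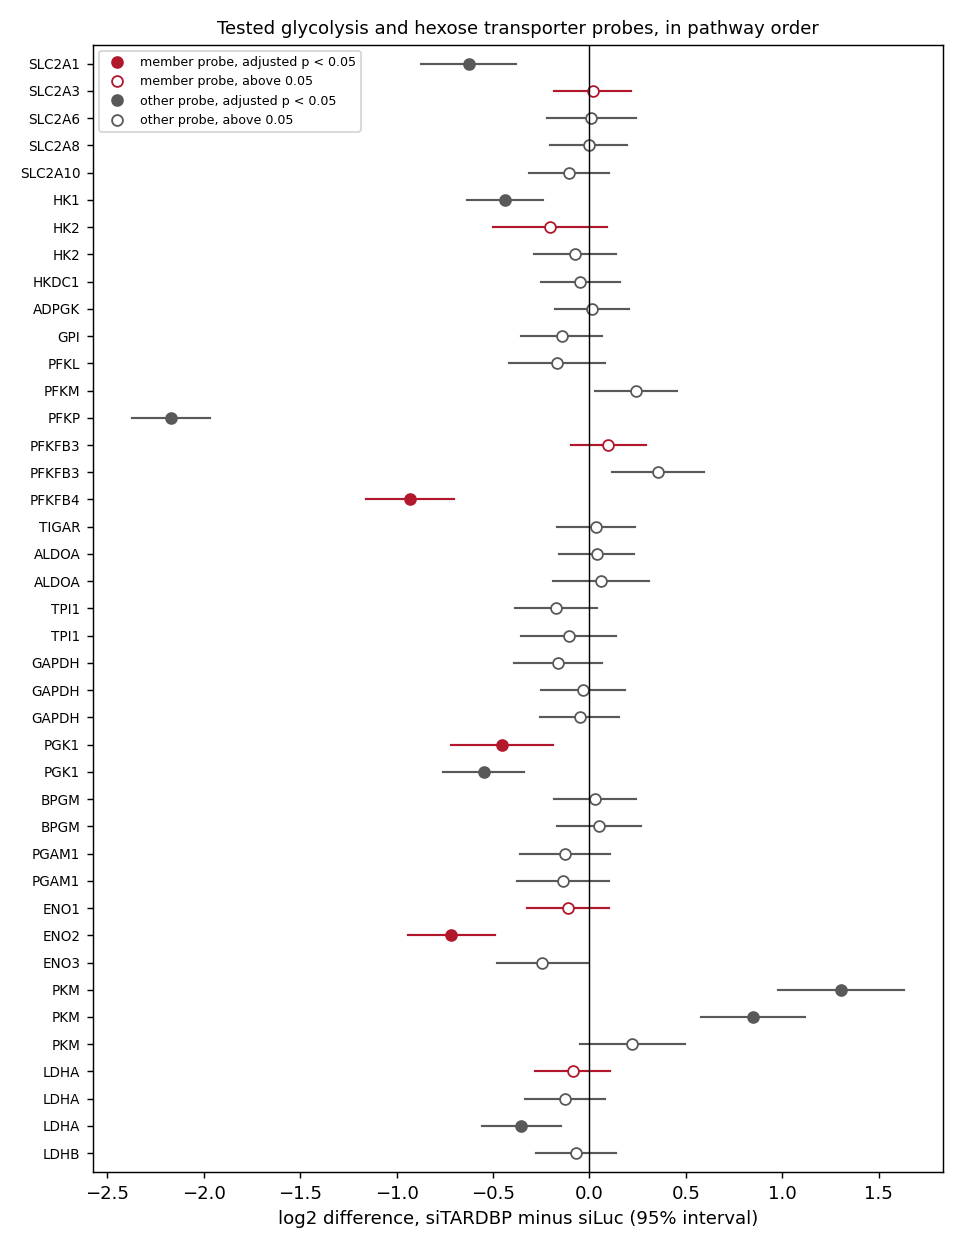
Log2 difference between siTARDBP and siLuc with its 95% interval for the 41 tested probes of glycolysis and hexose transport, from uptake at the top to lactate at the bottom. Red marks member probes, grey other probes, and filled points passed an adjusted p of 0.05. PFKP stands apart at -2.17, PFKFB4, ENO2, SLC2A1 and both PGK1 probes lie to its right below 0, and 2 PKM probes lie highest at 0.85 and 1.30.

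For 2 pairs of member isoforms, ENO2 with ENO1 and PFKFB4 with PFKFB3, the difference between the isoforms was compared directly. These pairs were chosen after the values were seen. Other families with 1 called isoform, the glucose transporters, the hexokinases and the phosphofructokinases, were not compared in this way. ENO3, the muscle enolase, had a log2 difference of -0.24 (limma adjusted p = 0.18). The log2 change of ENO2 minus that of ENO1, taken within each array, was -0.61. The change of PFKFB4 minus that of PFKFB3 was -1.03. In both pairs the 3 siTARDBP arrays lay apart from the 3 siLuc arrays. The exact two-sided permutation test gave p = 0.10 for each of the 2 pairs, also after adjustment, which is the smallest p that 3 arrays against 3 allow.

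The wider list of glycolysis and hexose transporter genes held 46 symbols, of which 42 were annotated on 76 probes. Of these, 41 probes of 28 genes were tested, and 10 passed, 8 lower and 2 higher. That is 24.4% of the list's tested probes, beside 11.2% of all tested probes, and the median log2 difference of the list was -0.087. The list includes the members' genes, and both were drawn up with results of these data known. Outside the members' genes, 27 probes of 19 genes were tested and the median was -0.047. Of these probes 4 passed, 2 higher and 2 lower, or 14.8% beside 11.2% of all tested probes. The largest fall was that of PFKP, the platelet isoform of phosphofructokinase, with a log2 difference of -2.17 (4.51-fold lower, limma adjusted p = 4.0e-10). HK1, the hexokinase of most tissues, fell by 0.44 (1.35-fold lower, limma adjusted p = 0.0057), with raw values of 3205, 2854 and 3039 in siLuc and 2473, 1783 and 1745 in siTARDBP.

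PKM, which encodes pyruvate kinase of muscle and most tumours, moved the other way on 2 of its 3 probes. ILMN_1672650 read 875, 665 and 790 in siLuc and 2819, 1149 and 1510 in siTARDBP, and rose by a log2 difference of 1.30 (2.47-fold higher, limma adjusted p = 3.1e-05). ILMN_1775327 rose by 0.85 (1.80-fold higher, limma adjusted p = 0.00032). The remaining PKM probe, ILMN_2366634, gave 0.22 (limma adjusted p = 0.30). The annotation pairs the 3 probes with different PKM transcripts, and which transcripts each probe reads was not tested. GPI, ALDOA, TPI1, GAPDH and PGAM1, enzymes of the middle of the pathway, did not pass on any probe, with log2 differences between -0.17 and 0.059. The other phosphofructokinase isoforms did not pass either. PFKL had a log2 difference of -0.17 (limma adjusted p = 0.40). PFKM had 0.24 (limma adjusted p = 0.14), with all siTARDBP arrays above all siLuc arrays after normalisation.

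HIF-1 is known to raise several of these genes, so a list of its known targets outside glycolysis was read beside them. Of 16 annotated genes, 13 were tested on 15 probes, and 3 probes fell and 1 rose, 26.7% of the list's tested probes beside 11.2% of all. Of the 15 probes, 12 had a log2 difference below 0, passing or not. The list was drawn up with results of these data known, and HIF-1 activity was not tested. The median of the list was -0.20, beside -0.0039 over all tested probes. BNIP3, a mitochondrial protein of mitophagy, fell by 0.69 (1.62-fold lower, limma adjusted p = 0.00032). P4HA1, a collagen prolyl hydroxylase subunit, fell by 0.54 (1.45-fold lower, limma adjusted p = 0.0015), and ANKRD37 fell by 0.32 (limma adjusted p = 0.038). LOX, a collagen cross-linking enzyme, rose by 0.34 (limma adjusted p = 0.026). ADM, NDRG1, DDIT4 and EGLN1 were tested and did not pass, and VEGFA was not above background on enough arrays. HIF1A itself had 3 tested probes, none of which passed. The calls of ANKRD37 and LOX were lost in 10 and 7 of 19 alternatives, while those of BNIP3 and P4HA1 held in all 19.

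**Figure D3:**
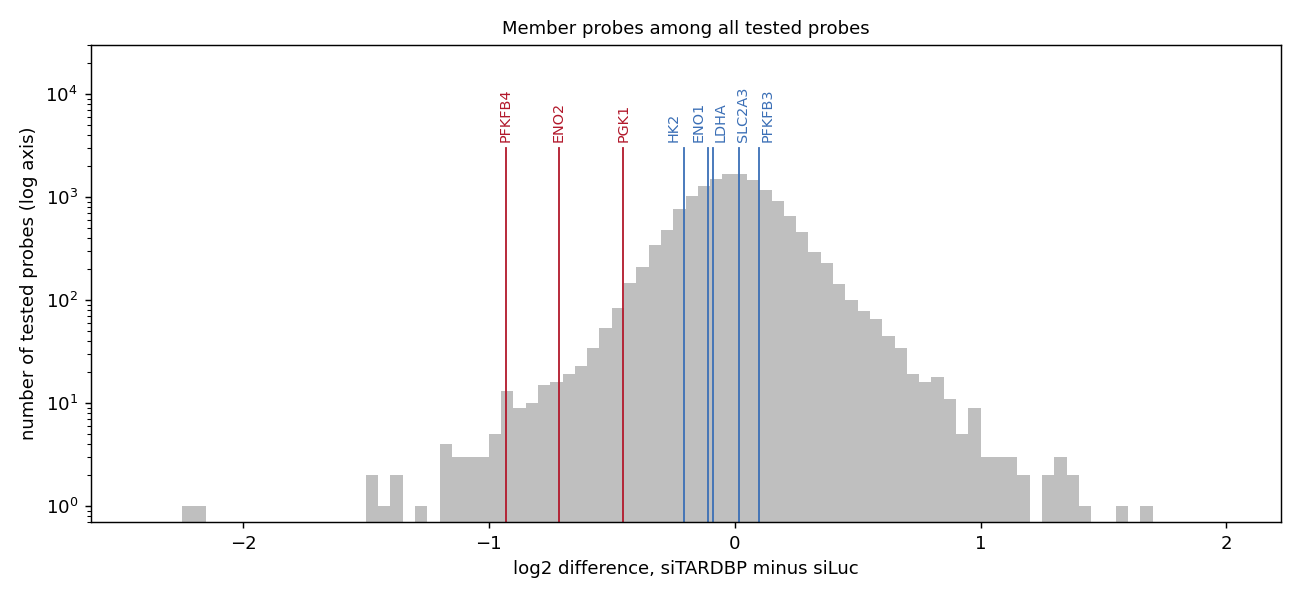
Distribution of the log2 difference between siTARDBP and siLuc over the 15149 tested probes, with the count on a log axis. Vertical lines mark the 8 tested member probes, red where the adjusted p was under 0.05. PFKFB4 at -0.93, ENO2 at -0.72 and PGK1 at -0.45 lie in the lower tail and the other 5 between -0.21 and 0.099.

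The arrays of replicate 2 in both groups had a lower background than the other 4, with a mode of 58.9 and 59.3 against 71.6 to 75.9. Member differences were therefore also read within each class of background. PFKFB4 differed by -0.88 between the 2 low-background arrays and by -0.96 between the other 4. ENO2 differed by -0.78 and -0.68, and PGK1 by -0.41 and -0.47. SLC2A1 differed less between the low-background arrays, by -0.23 against -0.83. HK2 differed by -0.49 and -0.065, and ENO1 by -0.33 and -0.0015. With 1 array per group, the low-background values carry no test.

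**Figure D4:**
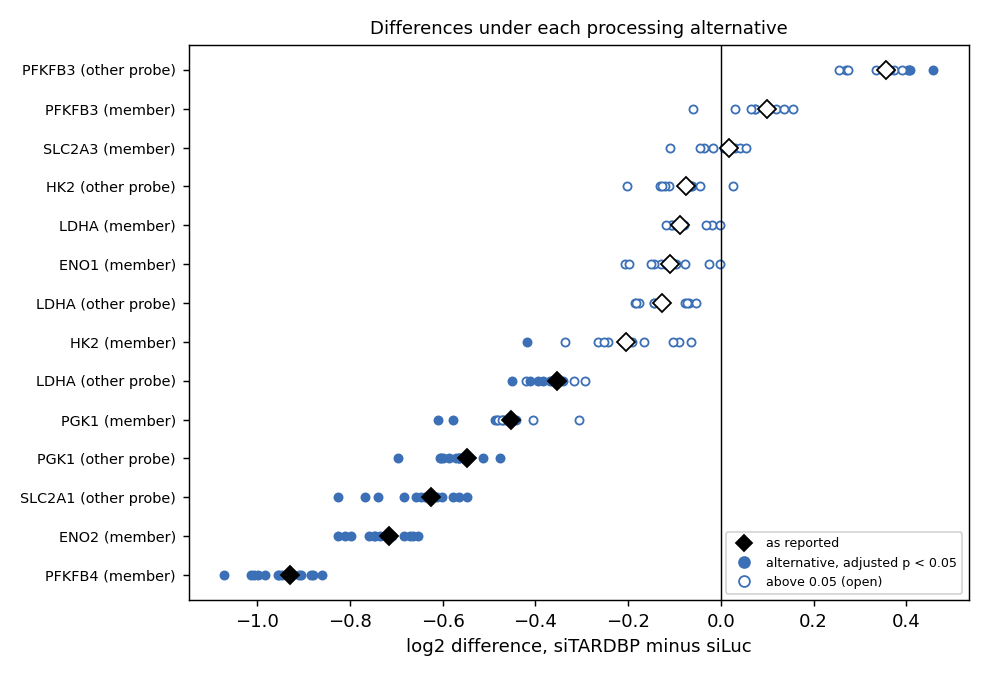
Log2 difference of each tested probe of the members' genes as reported (diamonds) and under each processing alternative (circles), filled where the adjusted p was under 0.05. All PFKFB4, ENO2 and SLC2A1 points are filled and lie at -0.55 or lower, the member probe of PGK1 has filled and open points, and SLC2A3 points lie on both sides of 0.

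PFKFB4 passed the test in all 19 processing alternatives, with log2 differences from -1.07 to -0.86 and adjusted p of at most 0.0027. ENO2 passed in all 19, from -0.83 to -0.65 with adjusted p of at most 0.017. SLC2A1 passed in all 19, from -0.83 to -0.55 with adjusted p of at most 0.021. The member probe of PGK1 passed in 12 of 19, from -0.61 to -0.31. LDHA, ENO1, PFKFB3 and SLC2A3 passed on their member probes in none of the 19.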

How the data were processed

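Total RNA of 6 SK-Hep1 samples was labelled with biotin and hybridised to Illumina HT-12 bead arrays carrying 47231 probes. The deposited table holds raw probe intensity on a linear scale, exported from BeadStudio per the labels, and whether background had been subtracted is not given in the sources used here. A second deposited table holds log2 values that the authors had normalised, with a common median of 6.121 on each array. It served as an alternative.

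The raw intensities were background-corrected with normexp (offset 50), quantile-normalised and log2-transformed in limma 3.58.1 under R 4.3.3. A probe was tested if it exceeded, on at least 3 of the 6 arrays, the 95% level of a symmetric background mirrored about the mode of the array's dim probes. Groups were compared with lmFit and eBayes, and p-values were adjusted by Benjamini-Hochberg over the 15149 tested probes with a threshold of 0.05. The number of arrays limits the precision. Probes of a gene were kept apart and are reported where they disagree.

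The platform annotation, with symbols updated through Entrez identifiers, paired 30113 probes with 1 gene and 8 with several, and 17110 were not listed. Named are the members, all other probes of their genes, TARDBP, PFKP and, from each list, genes with a called probe, at most 5 a list. Other genes named beside a count, CD68 among them, were named to account for their list. TARDBPP3 was named beside TARDBP. The members and lists were chosen with earlier results of these data known. There were 19 alternatives, of background correction, normalisation, filter, eBayes settings, array weights, blocks and single arrays left out.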

Additional observations from a re-analysis of the deposited data

How the results depend on the processing

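The count of called probes over the whole array was 1698. It fell to 1016 with each array scaled by the median of all probes, which moved the median difference to -0.087 and the higher calls from 52.4% to 27.8%, and to 849 on the 4 arrays of higher background alone. Leaving out one array gave 950 (without siTARDBP replicate 3) to 1792 (without siTARDBP replicate 2), with 960 without siLuc replicate 2. Of the 8 member probes 2 or 3 were called under each of the 19 alternatives, and of the 41 glycolysis probes 7 to 11. With the replicate number as a block, 1744 probes were called, 1623 of them shared, with 3 member probes and 11 glycolysis probes, PFKFB3 ILMN_1660847 gained. Same-numbered arrays correlated in their deviations from the group means with r of 0.106, 0.103 and -0.0025 across probes, and siLuc replicate 3 did not correlate best with its own number. No pairing was therefore used, although both replicate 2 arrays share the lower background. Signs turned for 3 probes that never passed in those fits. PFKFB3 ILMN_2186061 was -0.061 under median scaling over all probes. SLC2A3 was -0.11 under that scaling, -0.017 under median scaling over tested probes and -0.036 on the higher-background arrays. SLC2A3 was also -0.044 without siTARDBP replicate 2, and 0.053 without siTARDBP replicate 3. HK2 ILMN_2156172 was 0.026 without siLuc replicate 3 and -0.13 without siLuc replicate 2. Over the 19 alternatives that HK2 probe ranged from -0.20 to 0.026. The PGK1 member call was also lost with a normexp offset of 16 (-0.46, limma adjusted p = 0.057) and on the higher-background arrays (-0.47, limma adjusted p = 0.14), as were there the dim LDHA probe (limma adjusted p = 0.068) and HK1 (limma adjusted p = 0.073). The cause was not tested. Dim probes such as ALDOC are limited by background, and the brightest such as LDHA lie near the top of the scale.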

Other observations

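Genes of the pathways that branch from glycolysis were read in the same fit. In the pentose phosphate pathway 6 of 8 annotated genes were tested on 6 probes, and 1 rose and 1 fell, 33.3% of the list's tested probes beside 11.2% of all. RPIA, ribose 5-phosphate isomerase, had a raw mean of 449 ± 67.6 in siLuc and 815 ± 181 in siTARDBP (SD, n = 3 each). It rose by 0.97 on the log2 scale (1.96-fold higher, limma adjusted p = 6.6e-06) and passed in all 19 alternatives. RPE, an epimerase of the same pathway, fell by 0.37 (limma adjusted p = 0.022), a call lost in 4 of 19 alternatives. Of 8 tested probes for lactate export and pyruvate use 1 passed, 12.5% beside the same 11.2%. BSG, the chaperone of the lactate transporters, rose by 0.37 (limma adjusted p = 0.019), a call lost under both median scalings and in 4 of the 6 fits that left out an array.

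Of 10 tested probes for glycogen genes, 1 passed, or 10% beside 11.2% of all. That UGP2 probe fell by 0.42 (limma adjusted p = 0.043), and the other 3 UGP2 probes did not pass. The call was lost in 9 of 18 alternatives, with adjusted p from 0.010 to 0.18 over them, among them the replicate block and the background class as a block (limma adjusted p = 0.061 in each). Between the low-background arrays the difference was 0.031, and between the other 4 it was -0.65. Of 2 tested probes for gluconeogenesis genes, 1 passed, or 50% beside 11.2% of all. FBP1, FBP2, PC and PCK1 of that list were not above background on enough arrays. The passing probe reads G6PC3, a glucose 6-phosphatase subunit of most tissues, which rose by 0.48 (limma adjusted p = 0.0035). Its call was lost under median scaling over all probes (0.36, limma adjusted p = 0.14). Of 16 tested probes for transcription regulators of these pathways, 1 passed, or 6.25% beside 11.2% of all. It reads MYC, which rose by 0.45 (limma adjusted p = 0.0034), and the call was lost under median scaling over all probes (0.30, limma adjusted p = 0.23). The other MYC probe differed by 0.27 (limma adjusted p = 0.070).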
